A study of Mus musculus with 6 samples.

Results

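The genes of MHC class I and class II antigen presentation were followed in spleen dendritic cells with and without Map3k7. The set held 35 genes listed by name for their role, of 17097 genes with a probe set naming 1 gene. Of the 35, 31 were measured in this way, and for B2m, Mr1, Tap1 and Tap2 no probe set was named, so these 4 were not analysed here. Where several probe sets named a gene, the brightest on average stands for it here, and the others served as a check. The genes fell into 13 class II genes (13 measured), 7 class I genes (5 measured) and 15 peptide processing genes (13 measured).

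The 3 wild-type samples came from tamoxifen-treated C57Bl/6 mice (genotype WT) and the 3 knockout samples from mice of genotype Map3k7CreER, given tamoxifen in the same way for 3 days so that Map3k7, which encodes the kinase TAK1, was deleted. The cells were CD11c+ and had been sorted by flow cytometry from spleen, and 100 ng of RNA per sample was hybridised to 1 Affymetrix array. The labels do not name the promoter that drives the Cre, and they name a Cre for the knockout genotype only, so loss of Map3k7 and presence of the Cre cannot be told apart. Nor do they state that the replicates were separate mice. The p-values therefore reflect the spread among these samples alone, which may be technical.

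MHC class II molecules carry peptides from endocytosed proteins to CD4 T cells. Their alpha and beta chains assemble on the invariant chain, which endosomal proteases cut down before the H2-DM editor exchanges its remnant for a peptide, and transcription of the whole set depends on the coactivator Ciita with the RFX and NF-Y factors. MHC class I molecules carry cytosolic peptides to CD8 T cells. These peptides are cut by the proteasome, pumped into the endoplasmic reticulum by the TAP transporter and loaded with the help of tapasin, calreticulin and other chaperones, and Nlrc5 is the class I counterpart of Ciita. Dendritic cells express both sets at high levels.

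Promoters of 2 class II chains, 2 class I chains and Psme2, the gene with the smallest p-value, are shown so that their short motifs can be compared. H2-Aa carries the same 3 kinds of motif (CCAAT box, X2 core and kappaB) as H2-K1 and H2-D1. Of the patterns searched, H2-Eb1 matched only the CCAAT box. Its stretch actagcaactgatg misses the 14-base X box pattern given below at the first base alone, so no match does not mean no related sequence. RefSeq entries in build GRCm38.p6 were matched for 27 of the 35 genes. No entry was matched for Cd1d1, Cd74, Ciita, H2-Ab1, Nlrc5, Rfxap, Tap2 and Tapbpl. Printed are the 250 bases before the start site, 5′ to 3′, of H2-Aa (chr17:34287824-34288073 on the minus strand), H2-Eb1 (chr17:34305617-34305866 on the plus strand), H2-K1 (chr17:34000348-34000597 on the minus strand), H2-D1 (chr17:35262844-35263093 on the plus strand) and Psme2 (chr14:55591102-55591351 on the minus strand). Capitals mark any match, on either strand, to the CCAAT box (CCAAT, the core of the Y box bound by NF-Y), the X2 core (TGACG), the gamma-activated site (TTCNNNGAA), the interferon-stimulated response element core (GAAANNGAAA), a 14-base X box (CCNAGNNACNGATG) or the kappaB consensus of 10 bases.
H2-Aa: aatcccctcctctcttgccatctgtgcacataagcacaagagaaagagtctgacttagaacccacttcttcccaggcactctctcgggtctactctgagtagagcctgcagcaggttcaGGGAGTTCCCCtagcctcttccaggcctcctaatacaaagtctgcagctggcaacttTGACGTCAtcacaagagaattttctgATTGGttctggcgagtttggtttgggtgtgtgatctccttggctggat
H2-Eb1: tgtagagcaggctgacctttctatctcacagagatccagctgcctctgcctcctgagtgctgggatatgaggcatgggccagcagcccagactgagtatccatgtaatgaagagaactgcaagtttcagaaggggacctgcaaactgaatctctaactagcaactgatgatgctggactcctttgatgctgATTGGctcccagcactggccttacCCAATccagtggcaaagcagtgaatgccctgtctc
H2-K1: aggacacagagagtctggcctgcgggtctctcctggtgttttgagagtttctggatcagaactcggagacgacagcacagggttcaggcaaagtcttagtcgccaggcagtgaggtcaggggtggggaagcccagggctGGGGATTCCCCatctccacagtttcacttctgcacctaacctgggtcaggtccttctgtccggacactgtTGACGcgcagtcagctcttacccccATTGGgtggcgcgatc
H2-D1: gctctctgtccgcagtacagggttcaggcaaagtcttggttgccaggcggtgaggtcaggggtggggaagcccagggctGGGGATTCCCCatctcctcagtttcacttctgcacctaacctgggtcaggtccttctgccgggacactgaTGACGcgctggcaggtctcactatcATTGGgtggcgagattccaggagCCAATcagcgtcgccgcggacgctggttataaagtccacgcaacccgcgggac
Psme2: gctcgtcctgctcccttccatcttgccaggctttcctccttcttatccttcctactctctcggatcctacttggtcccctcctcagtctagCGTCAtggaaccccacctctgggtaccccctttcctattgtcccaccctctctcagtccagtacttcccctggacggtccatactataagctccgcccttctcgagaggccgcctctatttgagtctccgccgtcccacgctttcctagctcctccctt

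A kappaB match lay in 4 of 5 class I promoters (H2-K1, H2-D1, H2-M3 and B2m), 1 of 9 class II promoters (H2-Aa) and 2 of 13 processing promoters (Calr and Ifi30), against 7.01% of 27018 promoters of the same length. In H2-K1 and H2-D1 it read GGGGATTCCC. The X2 core was in 4 of 5 class I, 1 of 9 class II and 6 of 13 processing promoters, against 17.9% of all, and the CCAAT box in 4 of 5, 7 of 9 and 6 of 13, against 34.5%. The X box matched in 1 class II promoter, H2-DMb1, and in 0.0481% of all. The interferon-stimulated response element core was found in B2m and Ctss (3.04% of all) and the gamma-activated site in H2-M3, H2-DMb2, Marchf1 and Psmb8 (7.18% of all). Overlapping matches were each counted, and a match describes the letters, not binding. Only exact matches were counted, so a promoter without a match may still hold a related sequence.

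On the log2 scale, array medians were 3.77 to 3.81 and array maxima 13.81 to 13.91. The labels were checked on Map3k7, whose representative probe set read 6.68, 6.69 and 6.57 in wild-type and 4.04, 4.46 and 3.64 in knockout cells, a difference of -2.60 (SE 0.19, limma adjusted p = 0.00128). Leaving out any 1 array kept it below 0.05 in 6 of 6 fits. Itgax, which encodes CD11c, stood at 11.16 ± 0.16 in wild-type and 10.93 ± 0.10 in knockout cells (SD, n = 3). Because the cells were sorted on CD11c, its level does not check their identity. The growth factor receptor Flt3 stood at 11.07 ± 0.18 and 11.41 ± 0.12. The dendritic cell factor Zbtb46 stood at 8.2 in wild-type and 7.45 in knockout cells, a difference of -0.75 (limma adjusted p = 0.0621) without overlap of the groups. Levels of different genes are given as array signal, which does not rank transcripts.

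Loss of Map3k7 moved no antigen presentation gene past the threshold. The class II chains were as bright in knockout as in wild-type cells, with a median difference over the 13 class II genes of -0.01 on the log2 scale. Of the class I genes 5 of 5 differences were negative with a median of -0.17, and of the processing genes 11 of 13 with a median of -0.15. Negative differences made up 9217 of 17097 over all genes and 638 of 1117 among genes with a mean level of at least 10. These medians carry no test and depend on the probe sets: on means over all probe sets of a gene the processing median was -0.01, and with the smallest-p probe set of each gene the class I median was -0.32. The median over all genes was -0.02, and -0.03 over those 1117 bright genes. Of the 31 measured genes, 0 had a limma adjusted p under 0.05 (Benjamini-Hochberg over all 45037 probe sets), against 1.67% of all genes, and the smallest was 0.168. With 1 array left out the smallest ran from 0.107 (Marchf1, without knockout replicate 1) to 0.415 (Psme2, without wild-type replicate 2).

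At an unadjusted limma p under 0.05, 6 of the 31 were lower (Psme2, Cd1d1, Tapbpl, Nlrc5, Calr and Ciita) against 8.0% of all genes, and 1 was higher (Marchf1) against 8.41%. Of the 1117 genes with a mean level of at least 10, 134 were lower and 127 higher at this p. Only Psme2, Calr and Marchf1 of the genes just named reached that level. The 3 knockout values were all below the 3 wild-type values in 9 of the 31, against 10.6% of all genes, and all above in 3, against 10.6%. Bright genes separate more often. Among genes with a mean level of at least 10, a cut-off chosen after the values were seen, 17.2% lay wholly below and 16.5% wholly above, and of the 23 antigen presentation genes at that level 6 lay below and 3 above. All 31 were at or above the level of the median probe set.

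**Figure D1:**
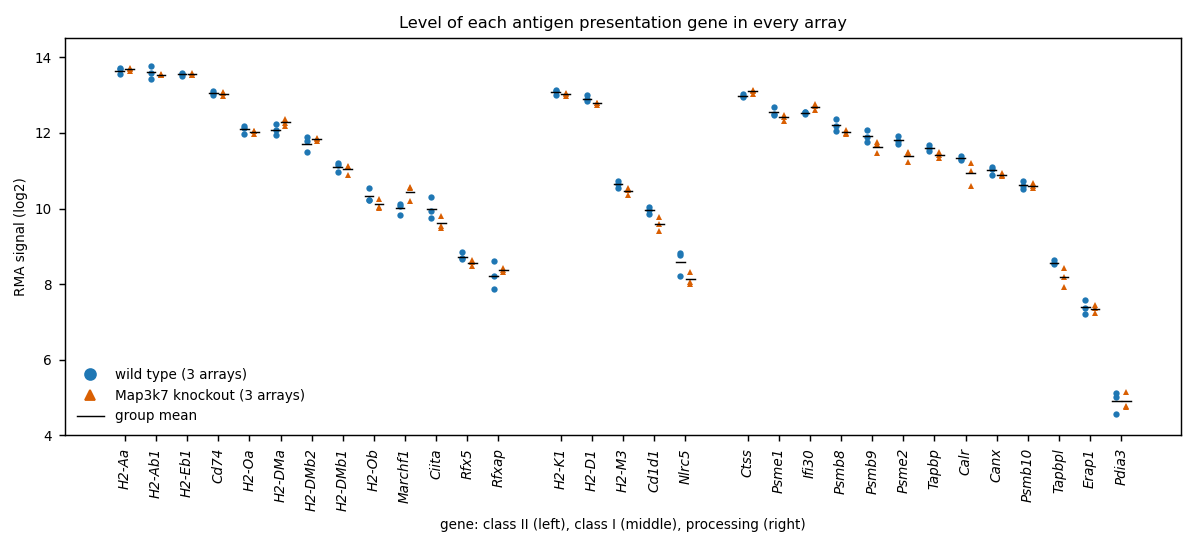
RMA signal on the log2 scale of each measured antigen presentation gene in the 3 wild-type arrays (circles) and the 3 Map3k7 knockout arrays (triangles), with group means as bars. The class II chains H2-Aa, H2-Ab1 and H2-Eb1 sit near the top of the scale in both groups, and the group means differ by 0.47 at most.

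The classical class II chains were nearly the same in both groups. H2-Aa, the alpha chain of I-A, read 13.70, 13.71 and 13.55 in wild-type and 13.65, 13.71 and 13.69 in knockout cells, a difference of 0.03 with a 95% confidence interval of -0.18 to 0.24. The knockout values lay inside the wild-type range. H2-Ab1, its beta chain, read 13.59, 13.77 and 13.43 against 13.53, 13.54 and 13.56, a difference of -0.06 (interval -0.31 to 0.20). H2-Eb1, the beta chain of I-E, read 13.59, 13.55 and 13.52 against 13.54, 13.59 and 13.53, a difference of 0.00 (interval -0.20 to 0.20). An interval of that width leaves room for changes of up to about 1.15-fold in H2-Eb1.

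The brightness of these probe sets limits what they can show. The mean of H2-Aa was 0.18 below the mean array maximum, that of H2-Ab1 0.28 and that of H2-Eb1 0.30, and whether signal so close to the maximum is compressed was not tested. The dimmest H2-Aa probe set, at 11.55 ± 0.07 in wild-type and 11.40 ± 0.09 in knockout cells (SD, n = 3), gave a difference of -0.15 (limma adjusted p = 0.627). On it all knockout arrays lay below the wild-type arrays, though the nearest values both round to 11.46. The remaining H2-Aa probe set gave -0.06. For H2-Ab1 the dimmest probe set gave -0.05 and the remaining one -0.10. The invariant chain Cd74, which escorts the class II chains to endosomes, stood at 13.05 ± 0.05 and 13.04 ± 0.05, a difference of -0.01 (interval -0.21 to 0.20).

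None of the peptide editors and their inhibitors passed the threshold. H2-DMa, the alpha chain of the H2-DM editor, read 12.08, 12.25 and 11.95 in wild-type and 12.26, 12.38 and 12.19 in knockout cells, a difference of 0.19 (SE 0.11, limma adjusted p = 0.593). Its 2 beta chain genes, close relatives whose probe sets may share signal, stood at -0.07 (H2-DMb1) and 0.11 (H2-DMb2). H2-Oa and H2-Ob form H2-O, which restrains H2-DM. H2-Oa stood at -0.07 (limma adjusted p = 0.861) and H2-Ob at -0.23 (limma adjusted p = 0.538), with overlapping groups for each. On the second H2-Ob probe set all knockout arrays lay below the wild-type arrays, with a difference of -0.45 (SE 0.15, limma adjusted p = 0.246).

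H2-DMa and H2-Oa were also set against each other within each array. The log2 signal of H2-DMa minus that of H2-Oa was -0.06, 0.06 and -0.02 in wild-type and 0.21, 0.32 and 0.21 in knockout cells, a shift of 0.26. Every knockout array lay above every wild-type array (2-sided exact permutation p = 0.1, the smallest that 3 against 3 arrays allow, and 0.267 after Benjamini-Hochberg adjustment over 4 pairs). The shift ran from 0.22 to 0.29 with 1 array left out. With 3 arrays a group this test cannot pass 0.05, so no change of the ratio is read from it.

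Among the regulators of class II, the transcript of the coactivator Ciita was lower and that of the ubiquitin ligase Marchf1, which sends surface class II for degradation, was higher, both short of the threshold. Ciita read 9.76, 9.93 and 10.30 in wild-type and 9.53, 9.80 and 9.50 in knockout cells, a difference of -0.39 (SE 0.16, limma adjusted p = 0.362). The groups overlapped, because knockout replicate 2 lay above wild-type replicate 1, and without wild-type replicate 3 the difference was -0.24. The second Ciita probe set, almost as bright, gave -0.12 (limma adjusted p = 0.753) and a dim one, at 4.11 ± 0.11 in wild-type cells, gave -0.34 (limma adjusted p = 0.189).

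Marchf1 read 10.12, 9.84 and 10.07 in wild-type and 10.20, 10.56 and 10.54 in knockout cells, a difference of 0.42 (SE 0.13, interval 0.11 to 0.73, limma adjusted p = 0.222). All knockout arrays lay above the wild-type arrays. A second bright probe set gave the same difference of 0.42 (limma adjusted p = 0.227), and a dim one, at 3.5 in wild-type cells, gave -0.18 (limma adjusted p = 0.732). The promoter factor Rfx5 read 8.69, 8.85 and 8.67 against 8.60, 8.63 and 8.49, a difference of -0.16 (limma adjusted p = 0.597), again without overlap. Its partner Rfxap stood at 0.14 with overlapping groups (limma adjusted p = 0.832).

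**Figure D2:**
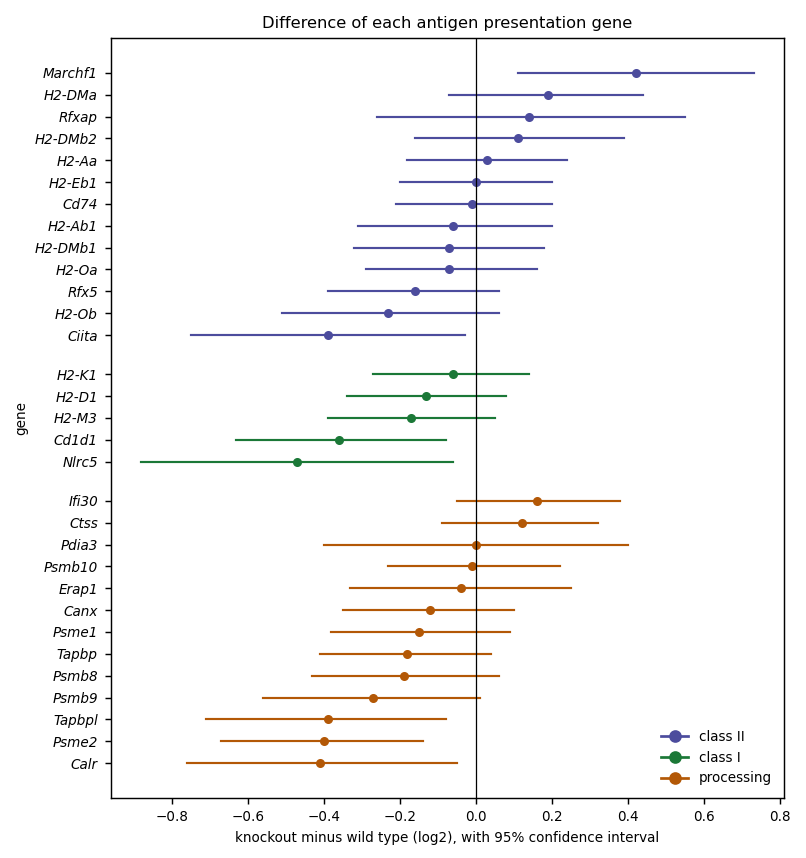
Knockout minus wild type on the log2 scale for each measured gene (points) with the 95% confidence interval from limma (lines), grouped into class II, class I and processing genes. The class II chains centre on 0, while the class I points lie between -0.47 and -0.06 and 11 of the 13 processing points are negative.

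None of the 5 measured class I genes passed the threshold (smallest limma adjusted p = 0.243). H2-K1, a classical heavy chain, read 13.01, 13.13 and 13.12 in wild-type and 12.99, 13.04 and 13.05 in knockout cells, a difference of -0.06 (interval -0.27 to 0.14), with overlapping groups. H2-D1, the other classical heavy chain of these mice, read 12.84, 13.00 and 12.90 against 12.79, 12.74 and 12.80, a difference of -0.13 (interval -0.34 to 0.08, limma adjusted p = 0.654). Here the groups did not overlap, though the gap between them was smaller than the wild-type SD of 0.08. H2-M3, which presents formylated peptides, read 10.65, 10.72 and 10.55 against 10.54, 10.37 and 10.50, a difference of -0.17 (limma adjusted p = 0.563).

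The heavy chain genes are close copies, and their probe sets can share signal. In addition to the representatives, 5 probe sets named H2-K1 and H2-D1 together with another locus, and all 5 gave negative differences, from -0.38 to -0.11. The 4 probe sets of H2-K1 alone gave -0.31 to -0.06 and the 5 of H2-D1 alone -0.35 to -0.12. Of these 14 probe sets 0 passed the threshold.

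Larger differences stood at the class I coactivator and the lipid-presenting molecule. Nlrc5 read 8.21, 8.77 and 8.83 in wild-type and 8.01, 8.05 and 8.33 in knockout cells, a difference of -0.47 (SE 0.18, interval -0.88 to -0.06, limma adjusted p = 0.321). The groups overlapped, because wild-type replicate 1 lay below knockout replicate 3. Cd1d1, which presents lipids to NKT cells, read 10.03, 9.97 and 9.85 against 9.78, 9.59 and 9.42, a difference of -0.36 (SE 0.12, limma adjusted p = 0.243). All knockout arrays were lower, and the second Cd1d1 probe set gave -0.32 (limma adjusted p = 0.200).

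The immunoproteasome replaces the 3 catalytic subunits of the constitutive proteasome in antigen-presenting cells. Psmb8 read 12.19, 12.37 and 12.05 in wild-type and 12.07, 12.00 and 11.97 in knockout cells, a difference of -0.19 (limma adjusted p = 0.575). Psmb9 read 11.89, 12.09 and 11.76 against 11.71, 11.75 and 11.47, a difference of -0.27 (limma adjusted p = 0.439), with all knockout arrays just below the wild-type arrays. A dim Psmb9 probe set, at 3.71 in wild-type cells, gave 0.03. Psmb10 read 10.60, 10.74 and 10.52 against 10.55, 10.67 and 10.61, a difference of -0.01 (limma adjusted p = 0.989), with overlapping groups.

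The PA28 activator opens the proteasome core. Its beta subunit Psme2 had the smallest p-value of all antigen presentation genes, at 11.71, 11.92 and 11.79 in wild-type and 11.51, 11.46 and 11.23 in knockout cells. The difference was -0.40 (SE 0.11, interval -0.67 to -0.14), which is 1.32-fold lower with no overlap of the groups, and it did not pass (limma adjusted p = 0.168). The alpha subunit Psme1 stood at 12.55 ± 0.11 and 12.41 ± 0.09, a difference of -0.15 (limma adjusted p = 0.666).

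The list of constitutive proteasome genes had a median difference close to that of the 5 immunoproteasome and PA28 genes (-0.19). It also holds subunits that both proteasome forms share, so its median does not compare the forms. The subunits replaced in the immunoproteasome are Psmb5 (-0.23), Psmb6 (-0.32) and Psmb7 (-0.65). Of 17 genes in that list 16 were measured, 15 differences were negative, the median was -0.18 and 0 passed. The smallest p-values belonged to the nuclear proteasome activator subunit Psme3 (-0.48, SE 0.13, limma adjusted p = 0.143) and to the catalytic subunit Psmb7 (-0.65, SE 0.25, limma adjusted p = 0.338). Within an array, the immune subunit minus the constitutive subunit it replaces shifted by 0.05 for Psmb8 against Psmb5 (exact permutation p = 0.7) and by 0.05 for Psmb9 against Psmb6 (exact permutation p = 0.2). For Psmb10 against Psmb7 the values were 1.07, 0.63 and 1.33 in wild-type and 1.29, 1.64 and 2.03 in knockout cells, a shift of 0.65 with overlapping groups (exact permutation p = 0.2). On these probe sets the groups overlapped in each of the 3 pairs. On means over all probe sets of a gene, which bring in the dim Psmb9 probe set, the Psmb9 to Psmb6 shift was 0.17 (exact permutation p = 0.1, the smallest possible).

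In the loading machinery of the endoplasmic reticulum, Calr and Tapbpl showed the larger differences. Calr, which encodes the chaperone calreticulin, read 11.31, 11.29 and 11.39 in wild-type and 11.20, 11.00 and 10.59 in knockout cells, a difference of -0.41 (SE 0.15, limma adjusted p = 0.326). The groups did not overlap, and knockout replicate 3 lay lowest, without which the difference was -0.24. The second Calr probe set gave -0.43 (limma adjusted p = 0.281). Tapbpl, the tapasin-related editor TAPBPR, read 8.57, 8.63 and 8.53 against 8.18, 8.44 and 7.92, a difference of -0.39 (SE 0.14, limma adjusted p = 0.277). Without knockout replicate 3 the Tapbpl difference was -0.26.

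Tapbp, which encodes tapasin, read 11.52, 11.60 and 11.68 in wild-type and 11.49, 11.42 and 11.33 in knockout cells, a difference of -0.18 (limma adjusted p = 0.508). A much dimmer Tapbp probe set went the other way, at 0.17 (limma adjusted p = 0.623). Canx, encoding calnexin, stood at -0.12 on its representative and at 0.13 on a second probe set. The trimming aminopeptidase Erap1 stood at -0.04 (limma adjusted p = 0.943), and a second probe set at 0.11. For Pdia3, the disulfide isomerase ERp57, the named probe set was dim in both groups (4.90 ± 0.30 and 4.90 ± 0.21, SD, n = 3), so its difference of 0.00 says little about the transcript.

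The 2 processing genes with positive differences act in endosomes on the class II route. Ctss, the cathepsin that degrades the invariant chain, read 13.02, 12.98 and 12.96 in wild-type and 13.03, 13.12 and 13.15 in knockout cells, a difference of 0.12 (limma adjusted p = 0.7). Ifi30, the thiol reductase GILT, read 12.49, 12.56 and 12.56 against 12.61, 12.77 and 12.72, a difference of 0.16 (limma adjusted p = 0.550). In both, every knockout array lay above every wild-type array.

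In a list of other endosomal proteases, which also holds the protease inhibitor Cst3 (-0.01), most values were higher in knockout cells. Of 9 genes in that list 7 differences were positive and the median was 0.30, and 1 passed. Ctsc, the dipeptidyl peptidase cathepsin C, rose from 11.44, 11.30 and 11.58 to 12.05, 12.11 and 12.18, by 0.67 (SE 0.10, limma adjusted p = 0.0295). Of the 6 fits that leave out 1 array, 2 kept it below 0.05, and it was lost without wild-type replicate 1 or 2 or knockout replicate 2 or 3 (adjusted p up to 0.139). Ctsd, the aspartic protease cathepsin D, stood at 0.61 (SE 0.13, limma adjusted p = 0.0753).

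**Figure D3:**
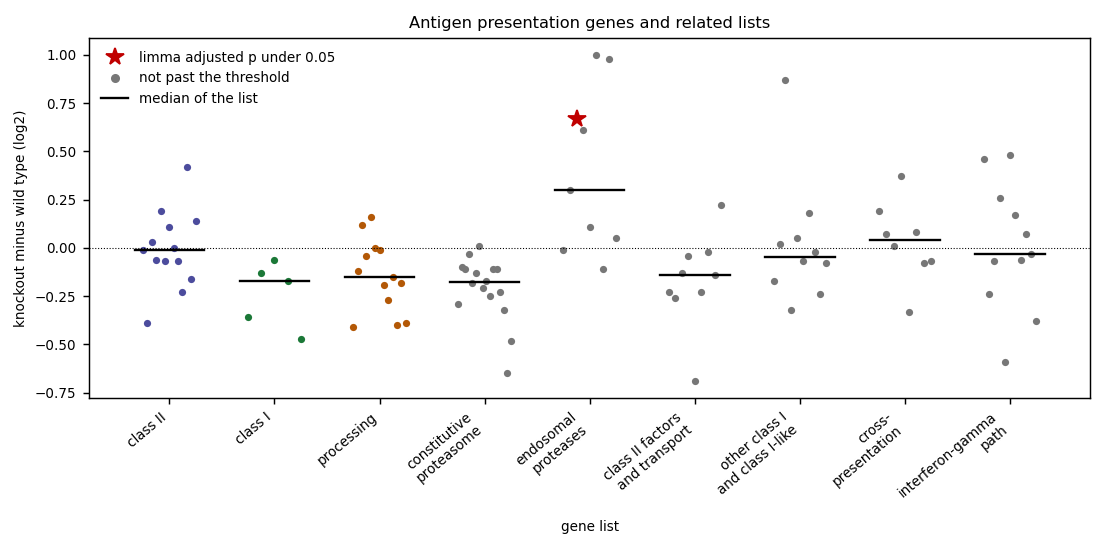
Knockout minus wild type on the log2 scale for the measured genes of the 3 antigen presentation groups and 6 related lists, 1 point per gene, with the list median as a bar and a star for a limma adjusted p under 0.05. The endosomal protease list, which also holds the protease inhibitor Cst3, has a median of 0.30 and the one star, Ctsc. The constitutive proteasome list, which also holds subunits shared with the immunoproteasome, has a median of -0.18.

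The remaining related lists had 0 genes past the threshold. Among 9 measured class II promoter factors and endosome proteins, 8 differences were negative (median -0.14), led by the NF-Y subunit Nfya (-0.69, SE 0.15, limma adjusted p = 0.0794) and the tetraspanin Cd82 (-0.26, limma adjusted p = 0.348). Among 10 other class I and class I-like genes (median -0.04), the neonatal Fc receptor Fcgrt stood at 0.87 (SE 0.19, limma adjusted p = 0.0817) and H2-Bl at -0.32 (limma adjusted p = 0.383). Among 8 genes of cross-presentation (median 0.04), the vesicle fusion protein Sec22b stood at -0.33 (limma adjusted p = 0.279) and the GTPase Rab27a at 0.37 (limma adjusted p = 0.560).

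The interferon-gamma path controls both coactivators. Its 11 measured genes had a median of -0.03, and the differences went both ways. The receptor chain Ifngr1 read 10.95, 10.90 and 10.74 in wild-type and 11.20, 11.33 and 11.44 in knockout cells, a difference of 0.46 (SE 0.11, limma adjusted p = 0.106). The transcription factor Irf8 read 11.53, 11.94 and 11.53 against 11.00, 11.26 and 10.96, a difference of -0.59 (SE 0.15, limma adjusted p = 0.121). In each, the groups did not overlap.

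**Figure D4:**
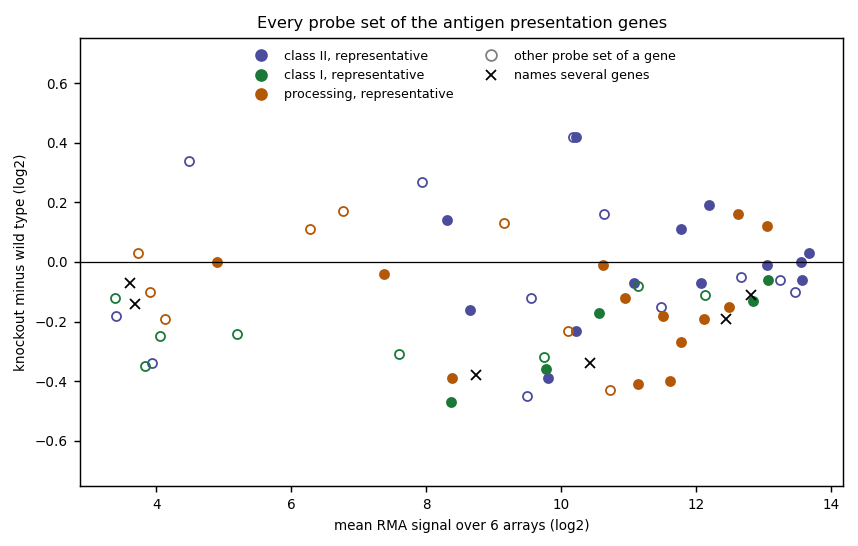
Knockout minus wild type on the log2 scale against mean RMA signal for all 59 probe sets naming 1 antigen presentation gene (filled for the representative, open for others) and for 6 naming several genes (crosses). No probe set passed the threshold, and the differences lie between -0.47 and 0.42.

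Over all 59 probe sets of these genes, 0 passed the threshold. The 31 representatives were joined by 28 others, of which 21 had the sign of their representative. Of the 35 genes 16 lie on chromosome 17, which carries the MHC, and an unbroken run of 11 of them follows one another there without another protein-coding gene, from H2-DMa through H2-DMb2, H2-DMb1, Psmb9, Tap1, Psmb8, Tap2, H2-Ob, H2-Ab1 and H2-Aa to H2-Eb1. The 14 measured genes on chromosome 17 had a median difference of -0.07, with 11 negative, and the 17 on other chromosomes had a median of -0.12, with 13 negative.

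The arrays of a group were not alike. Against the wild-type mean of each gene, the 13 processing genes had medians of -0.07, -0.13 and -0.23 in knockout replicates 1, 2 and 3, and of -0.02, 0.02 and -0.02 in the wild-type replicates. The 5 class I genes had medians of -0.12, -0.27 and -0.14 in the knockout arrays, in each of which 5 of 5 lay below the wild-type mean, and of -0.07, 0.08 and -0.01 in the wild-type arrays. Knockout replicate 3 was the lowest knockout array for 19 of the 31 genes, and wild-type replicate 3 the lowest wild-type array for 16.

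Signals of some cell type markers also differed between the groups. In bulk samples, fewer cells of a type and less RNA per cell cannot be told apart. The summed signal of 8 markers of the CD8a-positive subset ran from 13.40 to 13.75 in wild-type and from 13.12 to 13.29 in knockout cells, where Cd8a stood at -1.47 (limma adjusted p = 0.0620) and Xcr1 at -0.81 (limma adjusted p = 0.14), while Itgae, a further marker of the list, rose by 1.79 (limma adjusted p = 0.0211). Cd8a and Xcr1 were picked after their values were seen, as were Itgax, Flt3 and Zbtb46. So were the B cell, monocyte, macrophage, neutrophil and T cell genes named below without passing the threshold. For 7 markers of the CD11b-positive subset the ranges overlapped, at 11.82 to 12.13 and 11.60 to 11.86. There Clec10a rose by 1.99 (limma adjusted p = 0.0026) and Itgam by 1.31 (0.0466) and Dtx1 fell by 0.97 (0.0306). Short of the threshold, Esam stood at -1.10 (limma adjusted p = 0.0926) without overlap, Mgl2 at 1.29, Sirpa at -0.21 and Cd209a at 0.20. The bright Dtx1, Cd209a and Sirpa weigh most in that sum. The 5 markers of plasmacytoid cells also overlapped, at 10.12 to 10.49 and 9.97 to 10.69.

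Markers of other cells that can carry class II differed as well. The 9 B cell markers summed to between 9.14 and 9.46 in wild-type and between 8.8 and 9.0 in knockout cells, and 0 passed. The B cell genes Cr2 (-0.53, limma adjusted p = 0.0522), Blk (-0.57) and Ms4a1 (-0.51, from 8.6 to 8.1) had the most negative values, while Cd79a stood at 3.79 in both groups. The 13 macrophage markers summed to between 11.06 and 11.15 against 11.29 to 11.85. Of these 4 passed, all higher: Mrc1 by 2.31, Cd163 by 1.58, Cd5l by 1.51 and Mertk by 1.16. The 3 negative differences were Hmox1 (-0.53, limma adjusted p = 0.134), Adgre1 (-0.28) and Timd4 (-0.03), and Spic stood at 0.00. The 7 monocyte markers summed to 13.04 to 13.23 against 12.71 to 12.83, and 0 of the 7 passed. In that sum the bright Nr4a1 (-0.28) and Treml4 (-0.93) weigh most. Cx3cr1 (-1.02, limma adjusted p = 0.0654) and Ace (-0.49, limma adjusted p = 0.0532) were also lower in knockout cells, without overlap of the groups. Fcgr1 (0.81), Ccr2 (0.57) and Csf1r (0.28) stood higher. The part of these shifts in the class I, class II and endosomal protease values was not tested.

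For the remaining cell types, sums ran from 7.22 to 8.10 against 8.34 to 10.49 for 7 neutrophil markers. S100a8 (2.28, limma adjusted p = 0.147) and S100a9 (1.53, overlapping groups) weigh most in that sum. Mmp8 stood at 0.84, while Ltf, Ngp, Elane and Camp lay between -0.14 and 0.15. For 6 T cell markers, all with negative differences, the sums were 8.24 to 8.32 against 7.63 to 7.91. There Cd4 (-0.97, limma adjusted p = 0.0535) and Cd5 (-0.33) weigh most, and only Cd4 separated without overlap. Whether the Cd4 signal in these CD11c+ cells came from T cells was not tested. Cd3d, Themis, Cd3g and Cd3e lay between -0.25 and -0.09. In these lists 0 passed. For 6 erythroid markers, of which Hbb-b2 fell by 3.01, the sums were 9.38 to 11.36 against 6.89 to 8.08. The 5 NK cell markers overlapped, at 6.13 to 6.30 and 6.14 to 6.46. Among 10 general dendritic cell markers Kmo rose by 0.66 (limma adjusted p = 0.0385) and 0 passed the threshold as lower. Of these 10 differences 4 were negative, with Zbtb46 (-0.75, limma adjusted p = 0.0621) the lowest. The sums were 13.81 to 13.88 against 13.92 to 13.99. Of the 6 fits that leave out 1 array, Clec10a and Mrc1 passed in 6, Cd163 in 5, Itgae in 4, Mertk in 3, Cd5l, Dtx1 and Hbb-b2 in 2, and Itgam and Kmo in 1.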

How the data were processed

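Expression was measured on 6 Affymetrix arrays, 3 per group. The authors' deposited log2 values come from RMA, and the submitters' processing notes name Affymetrix Expression Console 1.1. That the scale is log2 was read from the values. RMA quantile-normalizes the arrays, so a shift of all transcripts would not show, and gives no count, depth or detection call. Of 45141 probe sets, 104 controls were left out. Platform annotation gave 28898 probe sets 1 symbol, and genes were never named from a probe set with several. Fits used limma 3.58.1 in R 4.3.3 (lmFit and eBayes, knockout minus wild type, no covariates) on all 45037 probe sets with Benjamini-Hochberg adjustment at 0.05, and the fit was tested on simulated data. Intervals are limma's at 95%. Ratios within an array were compared by exact permutation (scipy 1.17.1). Marker sums are log2 of summed linear signals. Promoters came from RefSeq tables in build GRCm38.p6, first listed start site per gene; the X2 core was added to the motifs after the values were seen. The genes and lists were chosen with earlier results of these data known. All 31 measured genes are described, those with the smallest p-values, separated groups or a central role in every array. Of each related list, the genes past the threshold or the 2 with the smallest p-values are named. Protein sequences were not used here. Precision is limited by the number of arrays.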

Additional observations from a re-analysis of the deposited data

How the results depend on the processing

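The count of 0 antigen presentation genes past the threshold was also 0 under every alternative tried: centring on array medians, renewed quantile normalization, probe sets above the median level, no x or s probe sets, mean or smallest-p probe set, trended or robust variance, array weights, thresholds of 0.10 and 0.01, adjustment over representative probe sets, the replicate block, and each array left out (0 to 0). Over all genes the calls ran from 61 (without knockout replicate 2) to 542 (replicate block), against 285. The replicate numbers did not pair the samples: correlations of deviations between equal numbers were 0.058, 0.084 and 0.266, and wild-type replicate 2 correlated best with knockout replicate 1 (0.179). With the number as a replicate block, 0 antigen presentation genes passed and the medians stayed at -0.01 (class II), -0.17 (class I) and -0.15 (processing).

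The class I median of -0.17 was -0.26 without x and s probe sets, which leaves out the heavy chains' bright probe sets, and -0.32 with the smallest-p probe set. The processing median of -0.15 was -0.01 on means of probe sets; which probe sets drew it there was not tested. With 1 array left out the medians ran from -0.03 to 0.02 (class II), -0.21 to -0.12 (class I) and -0.19 to -0.11 (processing). Of 31 genes 21 kept their sign under all of these. Signs turned for H2-Aa (-0.06 on means, -0.15 with the smallest p), Erap1 (0.03, 0.11, and 0.00 with array weights), Canx (0.00 on means, 0.13 without x and s probe sets), Cd74 (0.01 with array weights), and, after centring, H2-Eb1, Cd74, Psmb10 and Pdia3 (0.01 each), as well as H2-Eb1 after renewed quantile normalization (0.00). Leaving out 1 array gave ranges that cross or touch 0 for H2-Aa (-0.02 to 0.06), H2-Ab1 (-0.14 to 0.03), H2-Eb1 (-0.02 to 0.02), H2-DMb1 (-0.14 to 0.00), H2-DMb2 (0.00 to 0.20), Cd74 (-0.03 to 0.02), Rfxap (-0.03 to 0.33), Psmb10 (-0.06 to 0.05), Erap1 (-0.13 to 0.06), Pdia3 (-0.17 to 0.10) and the Psmb8 to Psmb5 ratio (-0.02 to 0.10). The cause of these turns was not tested.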
